A study of Nicotiana tabacum with 8 samples.

Results

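Chitinases and beta-1,3-glucanases are enzymes that cut chitin and beta-1,3-glucan, the main polymers of many fungal cell walls, and both families are counted among the pathogenesis-related proteins of plants. The genes described here are 4 chitinase genes and 3 beta-1,3-glucanase genes, 7 of the 34725 tomato coding sequences against which the tobacco reads were counted, and they were chosen by their tomato gene numbers. The chitinases are Chi3 (Solyc02g082920), Chi17 (Solyc02g082930), Chi9 (Solyc10g055810) and Solyc10g055800, which is listed next to Chi9. The glucanases are Solyc01g008620, Solyc01g060020 and Solyc10g079860. By their numbers the genes lie on tomato chromosomes 1, 2 and 10, and the files give coding lengths but no positions.

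Plants make such enzymes with different destinations. In tomato, Chi3 and Chi17 are known as acidic chitinases secreted into the space between cells, and Chi9 as a basic chitinase held inside the cell. Chitinases release chitin fragments that plant receptors recognize, and beta-1,3-glucanases act together with chitinases on fungal walls and also cut callose, the beta-1,3-glucan that plants themselves deposit in cell walls and at the pores between cells.

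RNA-seq was performed on shoot tips, with the apical meristem and the youngest leaves, of tobacco (Nicotiana tabacum) cultivar Samsun. Seedlings that were 6 days old were moved to closed vessels with MS medium and 30 g/L sucrose, and were sampled 10 days later, either without a fungus (4 control libraries, numbered 9 to 12) or after exposure to the volatiles of Cladosporium sphaerospermum strain TC09 growing in the same vessel but apart from the plants (4 TC09-exposed libraries, numbered 13 to 16). The labels describe vessels of 3 seedlings, 4 vessels per treatment and 1 tube of pooled tissue per vessel, whereas the methods of the study speak of replicate plants, so it is not settled whether some libraries shared a vessel. P-values therefore measure the spread between these libraries only. In the labels, 1 treatment text without exposure stands for every library, so the groups rest on the source name and on the exposure tag. Shoot tips could not be checked against marker genes, because no source used here names such genes by tomato number.

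Libraries held 7853857 to 9674090 reads counted to genes, of which 4.62 to 5.59% matched more than 1 coding sequence. Total reads include those reads and unique reads leave them out. Replicate libraries differed beyond sampling noise (chi-square over degrees of freedom, 6.42 to 34.4). Because tobacco reads were counted on tomato sequences, tobacco copies that resemble 1 tomato gene were counted together, and diverged copies can lose reads.

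Exposure to TC09 was accompanied by higher transcript levels of the chitinases Chi3 and Chi17, by 2.85-fold and 3.46-fold, both from low read counts. The other members did not pass the test. Chi9, its neighbor and the glucanases Solyc01g060020 and Solyc10g079860 had far more reads, but their levels differed several-fold between libraries of the same group. The glucanase Solyc01g008620 had almost no reads. On total reads 6 of the 7 members passed the filter on low counts, and 2 were higher, 0 were lower and 4 were not past the threshold, an adjusted p of 0.05 or less in edgeR's quasi-likelihood test with Benjamini-Hochberg adjustment over 19325 genes. In the same test 9.56% of all genes were called higher and 21.5% in either direction (1847 higher and 2317 lower). Scaled by total library size alone, the split was 3057 higher and 1663 lower, with the same counts of members. No member was lower at an unadjusted p of 0.05 either, nor with DESeq2 or limma-voom, but 1 was when exposed library 14 was left out (Solyc01g060020). The fit without library 14 called 2863 of 19579 genes lower and 2575 higher. Chi3 and Chi17 were also the members whose groups did not overlap, with all exposed libraries above all control libraries, which held for 11.5% of all genes, while 25.0% did not overlap in either direction. The median log2 fold change of the members tested was 0.39, beside 0.01 over all genes tested. Chi3 and Chi17 passed the filter only through the exposed libraries, so this median and their lack of overlap are descriptions only. The 4 members not past the threshold had 0.36 (Chi9), 0.42 (Solyc10g055800), -0.45 (Solyc01g060020) and -0.23 (Solyc10g079860). In bulk tissue a change in the number of cells that express a gene and a change in the RNA per cell cannot be told apart.

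**Figure D1:**
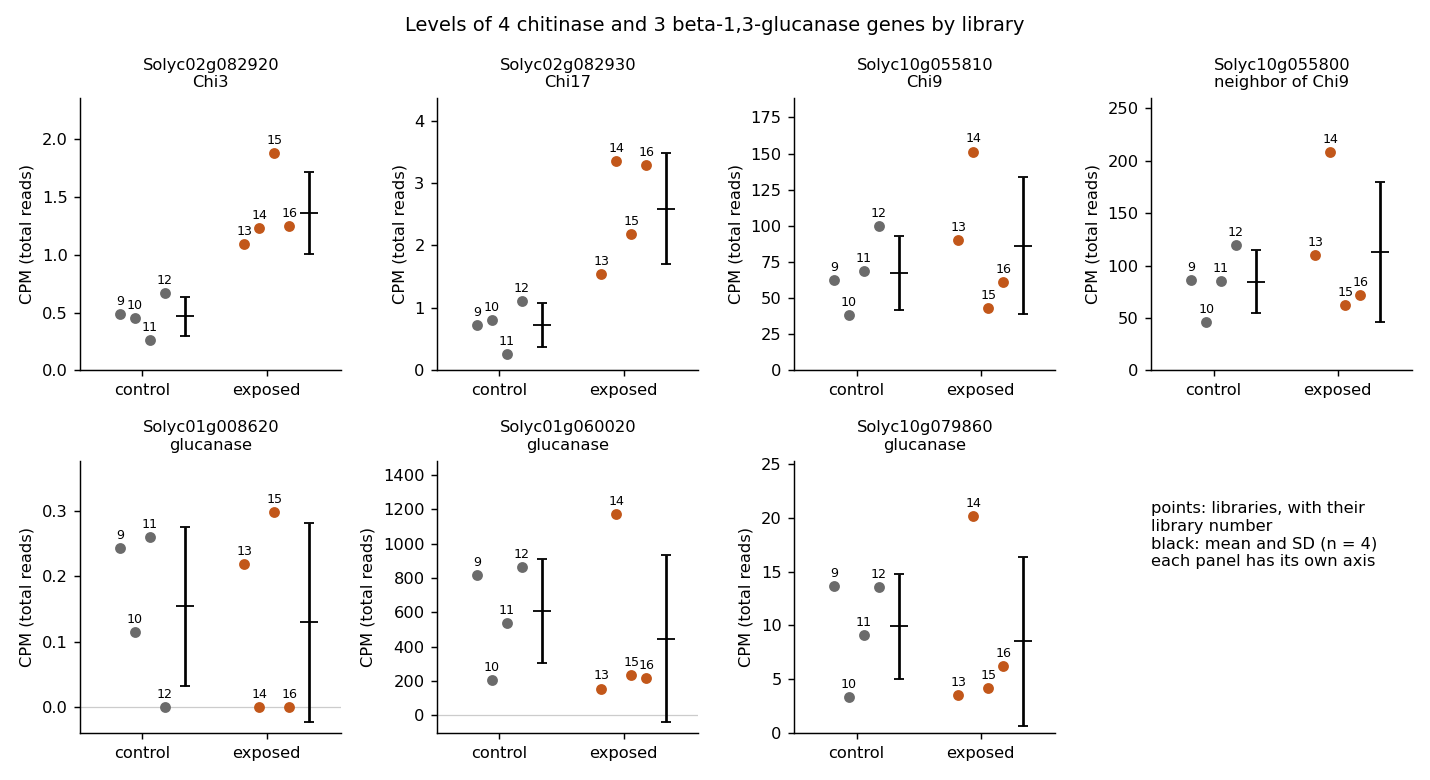
Reads per 1000000 reads of the library (CPM, total reads scaled by TMM, edgeR's correction of library sizes) of the 7 genes in each library, with the mean and SD of each group of 4 in black. The exposed libraries lie above the control libraries for Chi3 and Chi17, whereas for Solyc01g060020 and Solyc10g079860 exposed library 14 stands far above the other 3 exposed libraries.

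Levels of different genes were compared as TPM, in which reads are divided by coding length and scaled to 1000000 per library. In control libraries the order was Solyc01g060020 with 514 ± 262 TPM (SD, n = 4), Solyc10g055800 with 78.3 ± 30.5, Chi9 with 63.8 ± 26.3, Solyc10g079860 with 8.77 ± 4.41, Chi17 with 0.884 ± 0.446, Chi3 with 0.557 ± 0.210 and Solyc01g008620 with 0.137 ± 0.110 TPM. Within the control group the ranges of Solyc10g055800 and Chi9 overlapped, as did those of Chi17 and Chi3, and the other neighbors in the order did not overlap. By TPM, Solyc01g060020 ranked 217 among all coding sequences in the control group and 311 in the exposed group. As none of its reads were unique, its TPM and rank are not those of this gene alone. The exposed group had the same order, from Solyc01g060020 with 425 ± 496 TPM (SD, n = 4) over Solyc10g055800 with 115 ± 77.1, Chi9 with 89.3 ± 55.9, Solyc10g079860 with 8.38 ± 8.41, Chi17 with 3.42 ± 1.25 and Chi3 with 1.75 ± 0.472 to Solyc01g008620 with 0.124 ± 0.147 TPM. There, the ranges of Solyc01g060020 and Solyc10g055800 overlapped too, and so did those of Solyc10g079860 and Chi17. These members thus spanned more than 3 orders of magnitude of TPM, with the 2 genes that were called near the lower end. Because tobacco reads were counted on tomato sequences, TPM differences between genes also depend on divergence and on copies counted together.

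Chi3 had 4, 4, 2 and 6 total reads in control libraries 9 to 12 and 10, 11, 19 and 11 in exposed libraries 13 to 16. Every exposed library was above every control library, with library 15 the highest and library 11 the lowest. Its mean level was 0.467 ± 0.166 CPM in control and 1.36 ± 0.354 CPM in exposed libraries (SD, n = 4), a log2 fold change of 1.51 (SE 0.35, 95% interval 0.73 to 2.29, adjusted p = 0.0136 in edgeR). Unique reads made up 92.5% of its reads over all libraries, at 3, 4, 2 and 6 against 9, 11, 17 and 10 per library, and also did not overlap. The gene fell below the filter on unique reads. A fit in edgeR on unique reads with no filter was not part of the plan. In that fit Chi3 was higher by 1.50 on the log2 scale (adjusted p = 0.0223), where 6.93% of 26608 genes were called higher.

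Chi17 had 6, 7, 2 and 10 total reads in the control libraries and 14, 30, 22 and 29 in the exposed ones. Again the groups did not overlap, and library 13 was the lowest of the exposed group for both genes and library 12 the highest of the control group. The mean level was 0.724 ± 0.351 CPM in control and 2.59 ± 0.886 CPM in exposed libraries (SD, n = 4), and the log2 fold change was 1.79 (SE 0.39, 95% interval 0.92 to 2.66, adjusted p = 0.0104 in edgeR). On unique reads, 95.8% of the total, it was 1.78 (adjusted p = 0.0114 in edgeR). Chi17 was the only member called among the 4 that passed the filter on unique reads, in a test that called 9.65% of 19073 genes higher and 21.8% in either direction. Of all genes passing that filter, 11.6% had all exposed libraries above all control libraries on unique reads, and 25.1% did not overlap in either direction. Chi17 passed the filter on unique reads only through the exposed libraries, so its lack of overlap beside these shares is a description only.

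Both genes passed the filter on total reads only through the exposed libraries, since no control library reached the minimum of 10 reads scaled to the median library and all 4 exposed libraries did. With every gene of at least 1 read in the edgeR fit, Chi3 was higher by 1.52 on the log2 scale (adjusted p = 0.0208) and Chi17 by 1.80 (adjusted p = 0.00995), where 6.83% of 26833 genes were called higher. Leaving out any 1 library kept both calls, with adjusted p values in edgeR of 0.0195 to 0.0413 for Chi3 and 0.0105 to 0.0337 for Chi17. With the filter, neither passed a stricter threshold of 0.01.

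The 2 genes are adjacent in the tomato numbering, and the change of their ratio was tested on unique reads. The mean log2 ratio of Chi3 to Chi17 was -0.52 ± 0.35 in control and -0.90 ± 0.58 in exposed libraries (SD, n = 4), a difference of -0.38 (exact two-sided permutation test over 70 arrangements, p = 0.286, adjusted p = 0.857 over 3 pairs). Their per-library ratio ran from 0.368 to 1.00 (with 0.5 added to each count), and no unequal change of the pair was detectable at these read numbers. In likeness of profile, measured as the root mean square difference of centred log2 CPM over the 8 libraries, Chi17 ranked 640 among 19324 genes for Chi3, and Chi3 ranked 54 for Chi17. Most like Chi3 were Solyc02g089730 (difference 0.15) and Solyc05g014390 (0.20), and most like Chi17 were Solyc06g065340 (0.24) and Solyc00g323130 (0.26). With so few reads of Chi3 and Chi17 per library, the prior count of 2 damps both profiles, and the ranks are imprecise. The closest genes were picked from these same values.

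**Figure D2:**
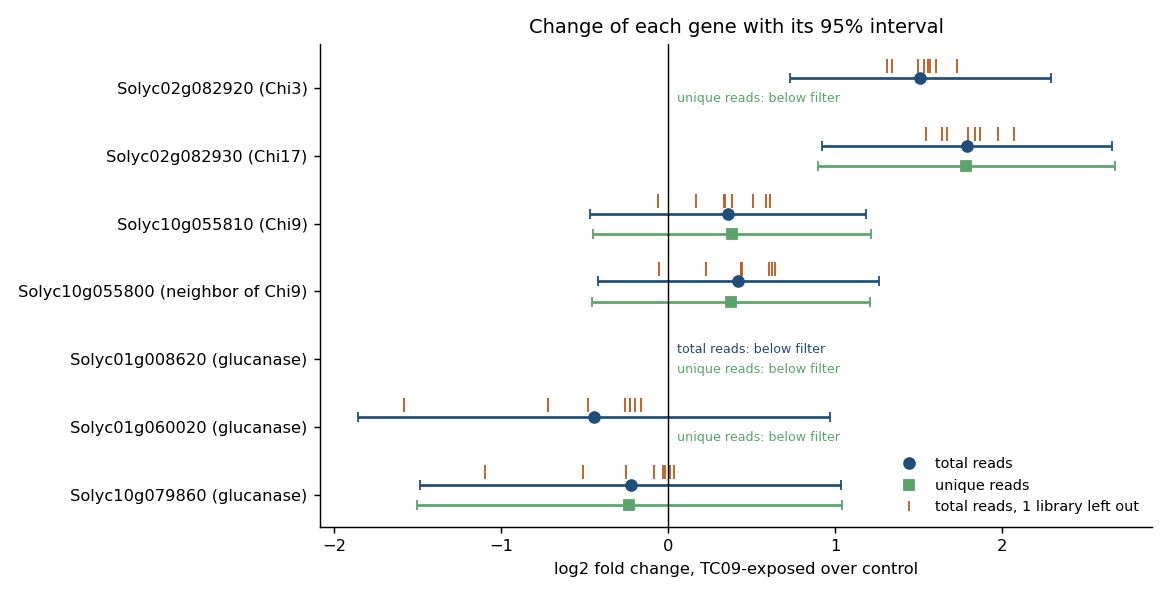
Log2 fold change of each gene, TC09-exposed over control, with its 95% interval in edgeR on total reads (circles) and unique reads (squares). Vertical ticks give the value with 1 library left out in turn, which stay above 1.3 for Chi3 and reach from -1.58 to -0.16 for Solyc01g060020.

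Chi9 had 517, 333, 530 and 898 total reads in the control libraries and 820, 1353, 434 and 538 in the exposed ones. The groups overlapped, with libraries 14, 12 and 13 the highest, in that order by CPM, and libraries 15 and 10 the lowest. The mean level was 67.3 ± 25.4 CPM in control and 86.3 ± 47.5 CPM in exposed libraries (SD, n = 4). The log2 fold change of 0.36 (SE 0.37, 95% interval -0.47 to 1.19) was not past the threshold (adjusted p = 0.529 in edgeR), and without exposed library 14 it was -0.059. The upper end of the interval is 2.28-fold, so an increase of up to that size was not excluded.

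Solyc10g055800 had 711, 405, 658 and 1081 total reads in the control libraries and 1000, 1864, 632 and 631 in the exposed ones. The same libraries, 14, 12 and 13, were the highest and library 10 again the lowest. The mean level was 84.5 ± 30.2 CPM in control and 113 ± 66.8 CPM in exposed libraries (SD, n = 4). Its log2 fold change was 0.42 (SE 0.38, 95% interval -0.42 to 1.26, adjusted p = 0.461 in edgeR) and became -0.056 without exposed library 14. Within each library it had 1.17 to 1.46 times the reads of Chi9. On unique reads the log2 ratio of Chi9 to Solyc10g055800 was 0.07 ± 0.10 in control and 0.11 ± 0.15 in exposed libraries (SD, n = 4), a difference of 0.040 (exact two-sided permutation test, p = 0.600, adjusted p = 0.900 over 3 pairs).

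Both genes share reads with other coding sequences. Unique reads were 84.2% of the reads of Chi9 and 61.5% of those of Solyc10g055800, against 95.8% for Chi17. On unique reads their log2 fold changes were 0.38 and 0.37, with adjusted p of 0.503 and 0.508 in edgeR, close to the values on total reads. Solyc10g055780 (80.1% unique), listed before the pair, and Solyc10g055820 (80.6% unique), just after it, also had libraries 12, 13 and 14 as the 3 highest. So did Solyc10g074440 (20.5% unique) and Solyc10g074380 (83.7% unique). These 4 genes were chosen after their values were seen, as the closest in profile. Solyc10g055790, listed between Solyc10g055780 and the pair, had 1 read in control and 0 in exposed libraries. For Solyc10g055800 the difference from Solyc10g074440 was 0.055 and from Chi9 0.11, and Chi9 ranked 3 among 19324 genes. None of the 4 was called, at log2 fold changes of 0.30 to 0.51.

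Solyc01g008620 had 2, 1, 2 and 0 total reads in the control libraries and 2, 0, 3 and 0 in the exposed ones. The sums were 5 and 5 reads, a ratio of 0.975 relative to library size (exact 95% interval 0.224 to 4.24, counting error only). It fell below the filter, and a change within that interval was not excluded at this depth.

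Solyc01g060020 had 6742, 1829, 4148 and 7787 total reads in the control libraries and 1427, 10506, 2361 and 1926 in the exposed ones. Exposed library 14 was the highest of all and the other 3 exposed libraries were near the level of control library 10, below the other 3 control libraries. The mean level was 607 ± 302 CPM in control and 446 ± 488 CPM in exposed libraries (SD, n = 4), and the log2 fold change was -0.45 (SE 0.64, 95% interval -1.86 to 0.97, adjusted p = 0.655 in edgeR). This value rested on 1 library. Without exposed library 14 the log2 fold change was -1.58 and the gene was called lower (adjusted p = 0.0174 in edgeR). That fit called 2863 of 19579 genes lower and 2575 higher. When limma-voom gave each library a weight, the log2 fold change was -1.22 (adjusted p = 0.0911).

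Solyc10g079860 had 113, 29, 70 and 122 total reads in the control libraries and 32, 180, 42 and 55 in the exposed ones. As for Solyc01g060020, library 14 was the highest, libraries 9 and 12 came next, and libraries 10 and 13 were the lowest. The mean level was 9.91 ± 4.89 CPM in control and 8.51 ± 7.84 CPM in exposed libraries (SD, n = 4), and 98.6% of its reads were unique. Its log2 fold change was -0.23 (SE 0.57, 95% interval -1.48 to 1.03, adjusted p = 0.808 in edgeR), and -0.23 on unique reads (adjusted p = 0.803). It was -1.10 without exposed library 14 (adjusted p = 0.0791 in edgeR) and above 0, at 0.033 and 0.0076, without exposed library 13 or 15.

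Solyc01g060020 had no unique read in any library. Of the coding sequences with reads, 225 had none that was unique, and 4 of these held over 2000 total reads. The listed gene Solyc01g059980, which has the same coding length of 1083 bp, was also without unique reads and had 6843, 1919, 4225 and 7644 reads in control and 1470, 10468, 2567 and 1854 in exposed libraries. Solyc01g060020 took 47.9 to 51.0% of the reads of these 2 rows, and in 7 of the 8 libraries the exact 95% binomial interval of that share held 50%. The files do not tell the 2 rows apart, and a value for Solyc01g060020 alone is uncertain. With both rows summed, an alternative chosen after seeing the data, the log2 fold change was -0.43 (adjusted p = 0.664 in edgeR).

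**Figure D3:**
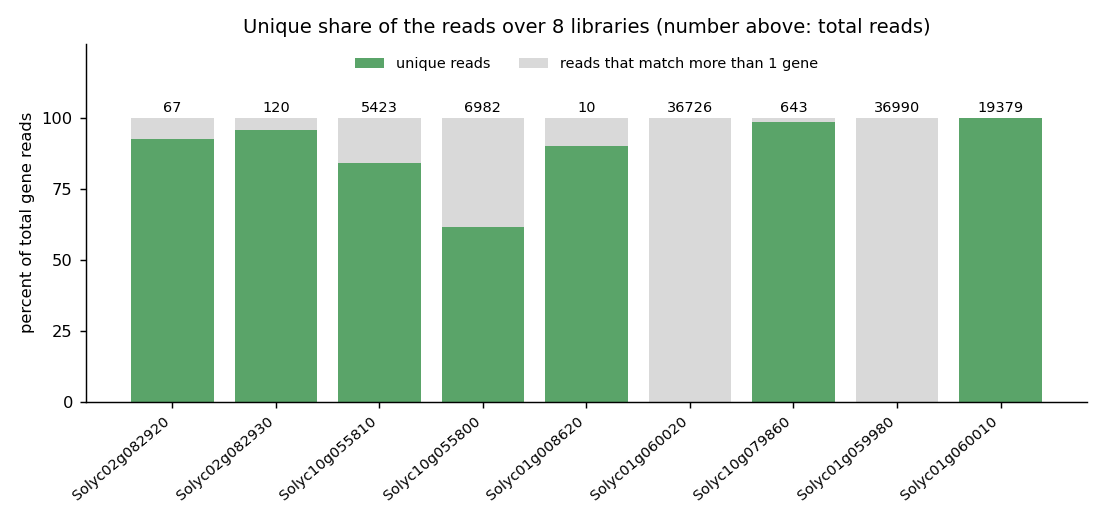
Share of unique reads in the total reads of each gene over the 8 libraries, with the number of total reads above each bar. Solyc01g060020 and Solyc01g059980 are at 0, the neighbor Solyc01g060010 is near 100%, and Solyc10g055800 is at 61.5%.

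The listed gene just before Solyc01g060020, Solyc01g060010, had 99.8% unique reads and the same library pattern. Its reads were 3539, 1014, 2268 and 4139 in control and 764, 5425, 1277 and 953 in exposed libraries, and their ratio to those of Solyc01g060020 was 0.495 to 0.554. Its log2 fold change was -0.49 (adjusted p = 0.612 in edgeR). The pattern of the glucanase was thus also present in reads that matched 1 coding sequence only. Of all genes Solyc01g060010 was the closest in profile to Solyc01g060020 (difference 0.048), followed by Solyc01g059980 (0.052), Solyc12g098580 (0.24) and Solyc12g056370 (0.26). Solyc10g079860, whose coding sequence lies on another chromosome in tomato, ranked 5 of 19324 (0.29), and for Solyc10g079860 the closest gene was Solyc01g060020. These genes were chosen after their values were seen.

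**Figure D4:**
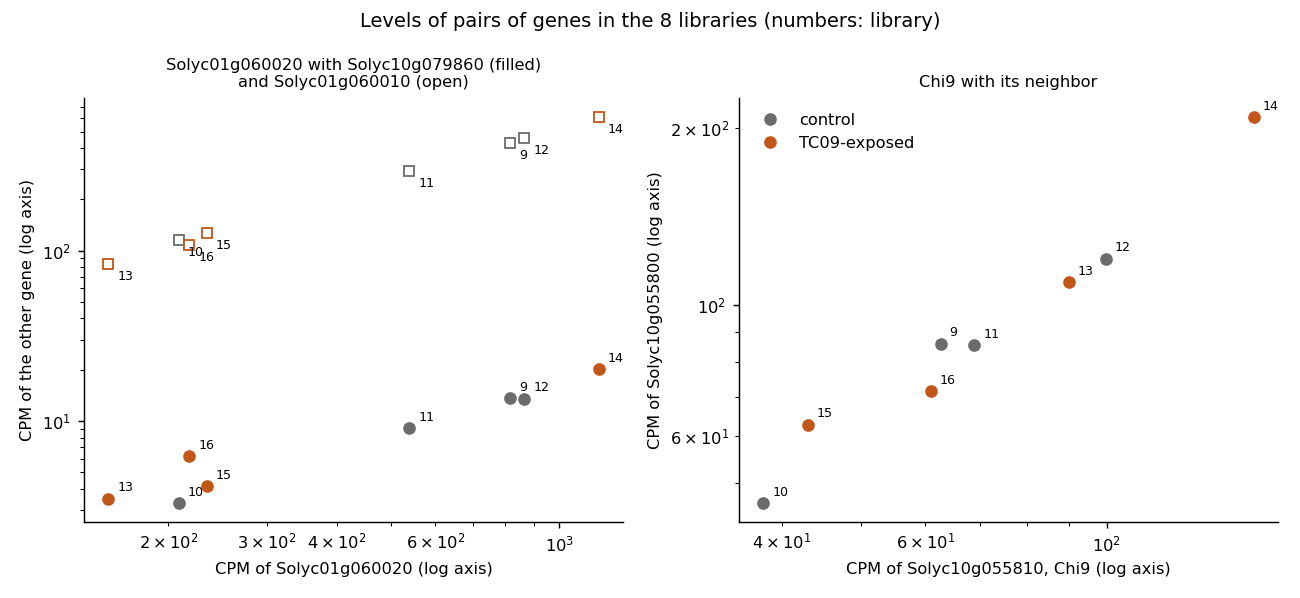
CPM per library, both axes logarithmic, for Solyc01g060020 against Solyc10g079860 (filled circles) and Solyc01g060010 (open squares) on the left, and Chi9 against Solyc10g055800 on the right, gray for control and orange for TC09-exposed. In the left panel libraries 9, 11, 12 and 14 are at the upper end and libraries 10, 13, 15 and 16 at the lower, and in the right panel library 14 is the highest and library 10 the lowest.

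The ratio of the 2 glucanases that passed the filter ran from 35.0 to 63.8 across libraries. Solyc01g060020 had 59.7, 63.1, 59.3 and 63.8 times the reads of Solyc10g079860 in the control libraries and 44.6, 58.4, 56.2 and 35.0 times in the exposed ones. All 4 exposed ratios were below the control ratios, by 0.37 in mean log2 ratio (exact two-sided permutation test on total reads, p = 0.0286, the smallest that 4 against 4 libraries allow). Adjusted over the 5 pairs of members compared on total reads, the p was 0.143. The test planned on unique reads could not be run for this pair, because Solyc01g060020 has none. For the same reason the ratio is not one of that gene alone.

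The spread between libraries of the same group was itself large for these genes. The highest control library of Solyc01g060020 had 4.14 times the CPM of the lowest, and the highest exposed library 7.52 times, against a median of 1.24 and 1.31 times over the 11261 genes with a mean of at least 10 CPM. Only 0.400% and 0.258% of those genes had as wide a range in the control and exposed group. For Chi9 the ranges were 2.62 and 3.52 times, and for Solyc10g055800 2.60 and 3.33 times. The biological coefficient of variation that edgeR estimated was 60.3% for Solyc01g060020, 36.6% for Chi9 and 37.1% for Solyc10g055800. Its median over all genes that passed the filter was 14.1%. Libraries 14 and 12 were high and library 10 low for both the Chi9 pair and the glucanases, whereas library 13 was among the highest for the Chi9 pair and among the lowest for the glucanases. The summed level of the 4 chitinases ran from 85.5 to 222 CPM in control and from 110 to 365 CPM in exposed libraries, and that of the 3 glucanases from 212 to 878 and from 160 to 1196 CPM. The glucanase sum holds Solyc01g060020 but leaves out Solyc01g059980, the row that the files do not tell apart from it. What these libraries shared beyond their group was not tested.

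Genes listed on either side of the members were counted to see whether neighbors moved with them. Of the 50 genes within 5 places, 30 passed the filter, 4 were called higher and 0 lower in edgeR, a share of 13.3% higher that is near the 9.56% of all genes. At an unadjusted p of 0.05 the counts were 6 higher and 1 lower, DESeq2 called 1 lower, and the median log2 fold change over the 30 was 0.034, beside 0.012 for all genes. The 4 calls fell to 1 without control library 9 or 11 or exposed library 13 and to 2 without exposed library 16. Without exposed library 14, 2 neighbors were called lower, in a fit that called 2863 of 19579 genes lower. The 2 genes that follow Chi17 were among the 4, Solyc02g082940 with a log2 fold change of 1.10 (SE 0.17, adjusted p = 0.00201) and Solyc02g082950 with 0.56 (SE 0.16, adjusted p = 0.0338). Solyc02g082940 had 32, 48, 27 and 41 reads in control and 82, 82, 108 and 75 in exposed libraries, with no overlap, kept its call with any 1 library left out, and ranked 7 of 19324 in likeness to Chi3. Solyc02g082950 lost its call without any 1 of control libraries 9 to 12 or without exposed library 13 or 16, at adjusted p values of 0.0503 to 0.0873. Of the reads of these 2 neighbors 98.8% and 97.4% were unique. The other calls were Solyc01g008600 (0.57, adjusted p = 0.0331), near the glucanase with almost no reads, and Solyc10g079880 (0.39, adjusted p = 0.0268), near Solyc10g079860. Solyc01g008600 lost its call without control library 9, 11 or 12 or exposed library 13, 15 or 16 (adjusted p up to 0.0944), and Solyc10g079880 without control library 9, 11 or 12 or exposed library 13 (up to 0.0758). No tested neighbor of the Chi9 pair or of Solyc01g060020 was called.

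**Figure D5:**
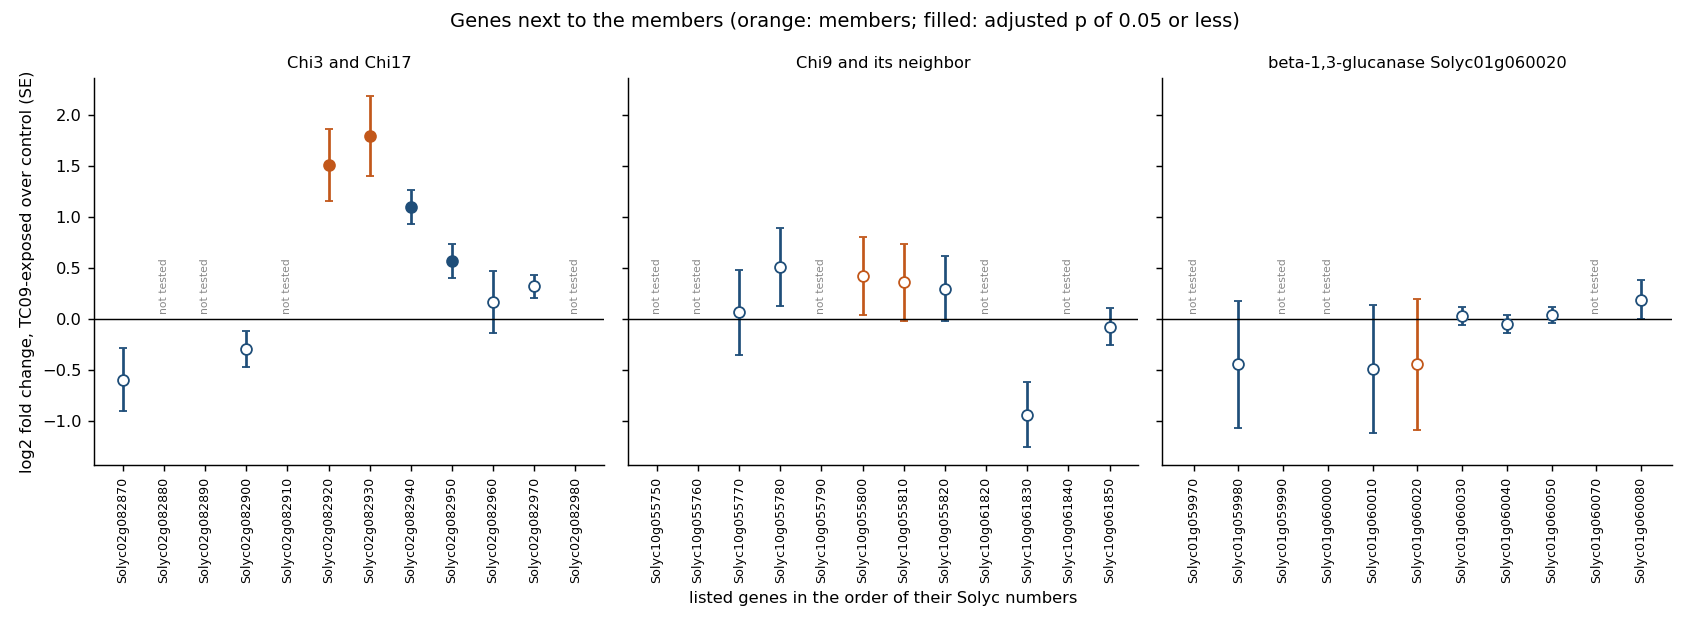
Log2 fold change with its SE, TC09-exposed over control, of the genes listed within 5 places of Chi3 and Chi17, of the Chi9 pair and of Solyc01g060020, in the order of their numbers, with members in orange and called genes filled. Chi3, Chi17 and the 2 genes after them are called higher, and the genes after Solyc01g060020 lie near 0.

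The study lists 7 genes under defense by tomato number, chosen there on these same libraries, so their direction is not independent evidence. Of these, 6 passed the filter and all 6 were higher in edgeR, with a median log2 fold change of 1.11. The 4 thaumatin-like genes, of a family of pathogenesis-related proteins with antifungal members, were higher on the log2 scale by 1.95 (Solyc04g081560, adjusted p = 0.00968), 1.10 (Solyc02g083790, adjusted p = 0.00122), 1.12 (Solyc10g084840, adjusted p = 0.0261) and 1.09 (Solyc03g118780, adjusted p = 0.0130). The call of Solyc10g084840 was lost without control library 9, 11 or 12 or exposed library 13 or 15, at adjusted p values of 0.0644 to 0.0759. The defensin Solyc04g008470, a small antimicrobial protein, was higher by 1.75 (adjusted p = 0.00559), and the endoglucanase Solyc12g055970, of a family that cuts other glucans of the cell wall, by 1.08 (adjusted p = 0.00310). The peroxidase Solyc02g094180 had 13 control and 46 exposed reads and fell below the filter, and in the edgeR fit without a filter it was higher by 1.68 on the log2 scale (adjusted p = 0.0396). The log2 fold changes of Chi3 and Chi17 lay within the range of these 6. For Chi9, its neighbor and the 2 glucanases tested, no difference from control was detectable beyond the spread between libraries.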

How the data were processed

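Per the methods of the study, the authors trimmed and filtered the reads (50 bp, although the labels also give another length) and mapped them with CLC Genomics Workbench (version 10, default parameters) to tomato sequences of a release that the sources used here do not state. The files the authors deposited hold counts of total gene reads and of unique gene reads, and the TPM made from the total reads and coding length, which recomputation from the counts returned. Deposited TPM were used only to compare levels between genes.

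Counts of all 34725 coding sequences were filtered (filterByExpr of edgeR, a minimum of 10 reads scaled to the median library in 4 libraries and 15 in all), scaled by TMM and tested with edgeR's quasi-likelihood test (edgeR 4.0.16, R 4.3.3), with group as the only term and Benjamini-Hochberg adjustment over all genes tested. The procedure was tested on simulated data. Log2 fold changes use a prior count of 0.125, and likeness of profile a prior count of 2. Ratios of unique reads of 2 members (with 0.5 added) were compared by exact permutation. Adjustment ran over the 3 of the 5 pairs planned that had at least 3 unique reads in each group.

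The plan was to name all members, the 7 defense genes listed by the study and the 2 genes closest in profile to each called member. Neighbors within 5 places were to be named where called with at least a 2-fold change. Other called neighbors and neighbors that follow the library pattern of a member fall outside that rule. So do genes closest in profile to members that were not called. Genes outside the rule were named after their values were seen. Alternatives were other filters, scalings, thresholds and tools (DESeq2 1.42.0, limma 3.58.1), unique reads, and leaving out each library. The members and lists were chosen with earlier results of these data known. Sequences and tomato annotation were not used here.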

Additional observations from a re-analysis of the deposited data

Results flagged for a closer look

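For 14 genes, the members and the defense genes listed by the study, 28 groups of 4 libraries were examined for a value standing apart. Of these groups 4 held one. The nominal rate of about 1 in 20 holds for independent normal values. These groups reuse the same libraries and were examined on CPM, so their count cannot be judged against that rate. Exposed library 14 stood above the other exposed libraries for Solyc01g060020, at 1176 CPM, and for Solyc10g079860, at 20.1 CPM. Control library 10 stood above the other control libraries for the thaumatin-like gene Solyc10g084840, at 4.34 CPM. Exposed library 15 stood below the other exposed libraries for the endoglucanase Solyc12g055970, at 47.7 CPM.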

How the results depend on the processing

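Chi3 and Chi17 were the 2 members called higher under every alternative except 3. There were 0 with a mean of at least 50 reads, where neither is tested, 0 at an adjusted p of 0.01 or less (Chi3 at 0.0136 and Chi17 at 0.0104, with log2 fold changes of 1.51 and 1.79), and 1 on unique reads, where Chi3 is not tested. Leaving out any 1 library gave 2 members called higher, 0 to 1 called lower, and log2 fold changes of 1.31 to 1.73 for Chi3, 1.54 to 2.07 for Chi17, -0.059 to 0.61 for Chi9, -0.056 to 0.64 for Solyc10g055800, -1.58 to -0.16 for Solyc01g060020 and -1.10 to 0.033 for Solyc10g079860. The log2 ratio of Chi9 to Solyc10g055800 turned from 0.040 to -0.050 on total reads and ran from -0.017 to 0.082 with 1 library left out, and that of Solyc01g008620 to Solyc10g079860 from -0.94 to 0.72 around -0.18, and could not be had without exposed library 15, which leaves under 3 reads. Of the defense genes listed by the study 3 were called with a mean of at least 50 reads, where the others are not tested. Of the neighbors, 1 was called higher at an adjusted p of 0.01 or less and 1 with an added 2-fold threshold, and 1 to 4 were with 1 library left out. DESeq2 and the edgeR likelihood-ratio test, the latter added after seeing the data, each called 1 neighbor lower, and leaving out 1 library 0 to 2. Scaling by total library size shifted the median over all genes from 0.012 to 0.11 on the log2 scale and changed no member's call. The causes were not tested. No paired analysis was possible because the groups share no library number. Genes near 1 CPM rest on about 10 reads per library, which limits their precision.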
